A study of Mus musculus with 10 samples.

Results

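The genes described here are 41 genes that heart muscle cells use to contract, to move calcium, to hold oxygen and energy, and to answer load. They were chosen by symbol for their known roles, by a rule that uses no measured value, although earlier results of these data were known when the list was made, and were matched to the Ensembl identifiers that name the rows of the deposited table. Of the 41 genes, 40 had a row among the 28185 genes of the series, and Ckmt2 was not analysed here. In a test across all genes, 38 of these 40 were among the 11549 genes with enough signal, while Myl4 and Myl7 fell under the minimum. By role, the list holds 9 proteins of the thick filament and the M-band, 6 of the thin filament, 13 of the Z-disc and the intermediate filaments, 5 that handle calcium, 4 for oxygen and energy, 3 stress genes that include both natriuretic peptides, and the splicing factor Rbm20.

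The libraries were RNA-seq of Ly6G+ cells, that is, cells carrying a surface protein of mouse neutrophils, enriched with magnetic beads from male C57Bl/6J mice of 12 to 16 weeks on day 3 of an infarct made by ligating the left coronary artery. The groups MI (n = 3 libraries, numbered 13, 19 and 20) and MI + MSC (n = 3, numbered 15, 17 and 18) came from the digested left ventricle below the ligature, and the groups Blood (n = 2, numbered 21 and 22) and Blood + MSC (n = 2, numbered 23 and 24) from blood. Mice of the MSC groups received syngeneic mesenchymal stromal cells (MSC) grown from bone marrow, 1000000 cells at each of 3 sites under the skin, and all 4 groups shared the ligation, with no unligated animals among the libraries used. No label ties a heart library to a blood library of the same mouse, and the batch label repeats the group, so batch and group cannot be told apart, and p-values measure the spread between these libraries.

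In a heart muscle cell, thick filaments of myosin slide along thin filaments of actin that are anchored in the Z-discs, with titin spanning from the Z-disc to the M-band. Calcium released from the sarcoplasmic reticulum through the ryanodine receptor binds troponin on the thin filament and starts contraction, and the pump SERCA2 returns it. Neutrophils have no sarcomeres and are not known for making most of these proteins, although several genes of the list, such as the tropomyosin gene Tpm1 and the SERCA2 gene Atp2a2, are also used by other cells.

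The values are normalized counts, reads per gene divided by the size factor of the library, from which the reads were recovered. Total reads ran from 148594 (MI 13) to 2653258 in cardiac libraries and, for those of blood, from 268860 (Blood 21) to 8602711, so that 1 read was worth 8.40 normalized counts for MI 13 and 7.07 for Blood 21, against 0.168 to 2.30 elsewhere. Olfactory and vomeronasal receptor genes took 811 to 11057 of each 1000000 reads in the cardiac libraries, most in MI 13, and 138 to 277 in blood. Ly6g itself had 4.75 to 26.9 normalized counts in cardiac libraries and 41.2 to 645 in those of blood. The neutrophil list was lower in MI than in Blood for 9 of its 12 tested genes (13.5% of all tested genes were called lower) and in MI + MSC than in Blood + MSC for 3 of 12 (5.85%), and its summed level was 4101 to 10782 in MI, 5337 to 22350 in MI + MSC, 51514 to 55981 in Blood and 19723 to 31335 in Blood + MSC. In bulk libraries, fewer cells of a type and less RNA per cell cannot be told apart.

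The promoters of the members were read from GRCm39, as the 250 bases before the start of the transcript that GENCODE tags as canonical, for all 40 members and all 17888 coding genes of the table. The letters searched on both strands were TATAAA for the TATA box, AGATAA for the family of GATA factors, CATTCC for TEAD factors, T, any base, then AAGTG for NKX2-5, and the usual degenerate motifs of MEF2 and of SRF, whose motif is called the CArG box. A MEF2 match was found in 6 of 40 members (15%) against 2.53% of all coding genes, and a CArG box in 3 of 40 (7.5%) against 1.25%. The TEAD motif was in 8 of 40 (20%) against 12.1%, the NKX2-5 motif in 6 of 40 (15%) against 9.60%, the GATA motif in 4 of 40 (10%) against 8.77% and the TATA box in 3 of 40 (7.5%) against 9.73%. The TATA box and the MEF2 motif can overlap, as they did in 1 member. At least 1 of the 6 motifs stood in 20 of 40 member promoters and in 35.2% of coding promoters. A match describes letters and does not show binding. The 5 promoters printed here are those of the members with the most normalized counts in the cardiac libraries, not per length, among the 9 with a MEF2 match or a CArG box. They are shown because these 2 motifs had the highest ratio of the share of members to the share of all coding genes, and capitals mark every match of any of the 6 motifs.
Myh6, alpha myosin heavy chain (chr14:55204226-55204475, minus strand, MEF2 and TEAD matches): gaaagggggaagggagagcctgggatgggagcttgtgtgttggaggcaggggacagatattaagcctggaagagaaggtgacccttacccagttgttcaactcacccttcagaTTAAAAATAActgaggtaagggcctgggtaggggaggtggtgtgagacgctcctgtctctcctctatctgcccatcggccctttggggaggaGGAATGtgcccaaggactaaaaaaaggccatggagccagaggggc
Xirp2, an actin-binding protein of the Z-disc (chr2:67276096-67276345, plus strand, MEF2 match): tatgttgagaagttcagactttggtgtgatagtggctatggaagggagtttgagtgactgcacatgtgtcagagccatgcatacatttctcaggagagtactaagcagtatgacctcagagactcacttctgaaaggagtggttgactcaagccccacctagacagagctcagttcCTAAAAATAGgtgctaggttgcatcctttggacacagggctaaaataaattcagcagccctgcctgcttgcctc
Myl3, ventricular essential light chain (chr9:110592459-110592708, plus strand, CArG box and 2 TEAD matches): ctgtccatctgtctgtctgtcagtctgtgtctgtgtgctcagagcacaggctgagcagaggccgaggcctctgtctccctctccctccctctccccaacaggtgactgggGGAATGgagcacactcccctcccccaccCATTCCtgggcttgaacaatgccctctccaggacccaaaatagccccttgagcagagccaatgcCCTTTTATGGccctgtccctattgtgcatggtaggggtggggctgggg
Mybpc3, cardiac myosin-binding protein C (chr2:90948239-90948488, plus strand, MEF2 match): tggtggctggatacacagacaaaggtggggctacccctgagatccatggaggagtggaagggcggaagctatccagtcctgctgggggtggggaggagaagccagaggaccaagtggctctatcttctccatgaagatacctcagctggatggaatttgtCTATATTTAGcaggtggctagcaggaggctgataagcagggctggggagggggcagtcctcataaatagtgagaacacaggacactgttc
Myom1, myomesin of the M-band (chr17:71326213-71326462, plus strand, CArG box and GATA match): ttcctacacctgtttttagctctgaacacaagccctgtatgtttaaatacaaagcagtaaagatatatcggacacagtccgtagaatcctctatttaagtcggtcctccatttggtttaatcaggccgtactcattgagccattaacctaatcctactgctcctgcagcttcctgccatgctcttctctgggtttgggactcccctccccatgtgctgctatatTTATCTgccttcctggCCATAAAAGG

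Reads on the members were a small but clear part of every cardiac library. They took 2.89%, 2.48% and 0.945% of all reads in MI 13, 19 and 20 and 0.359%, 0.569% and 1.41% in MI + MSC 15, 17 and 18. In blood they took 0.0387% and 0.0173% (Blood 21 and 22) and 0.0171% and 0.0249% (Blood + MSC 23 and 24), so every cardiac library lay above every blood library. The exact 95% Clopper-Pearson interval was 2.81% to 2.98% in MI 13 and 0.0316% to 0.0469% in Blood 21, and these intervals cover counting error only. The group means were 2.11% ± 1.03 (SD, n = 3) in MI, 0.778% ± 0.553 (SD, n = 3) in MI + MSC, 0.0280% ± 0.0151 (SD, n = 2) in Blood and 0.0210% ± 0.0055 (SD, n = 2) in Blood + MSC. Ttn, which encodes the giant protein titin, alone took up to 1.08% of the reads of a library (MI 19). A hand-written list named 8 members as also made by other cells. The 32 members outside it took 1.79% in MI and 0.648% in MI + MSC, against 0.00695% in Blood and 0.00488% in Blood + MSC. Absence from this list does not make a gene exclusive to heart muscle cells.

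**Figure D1:**
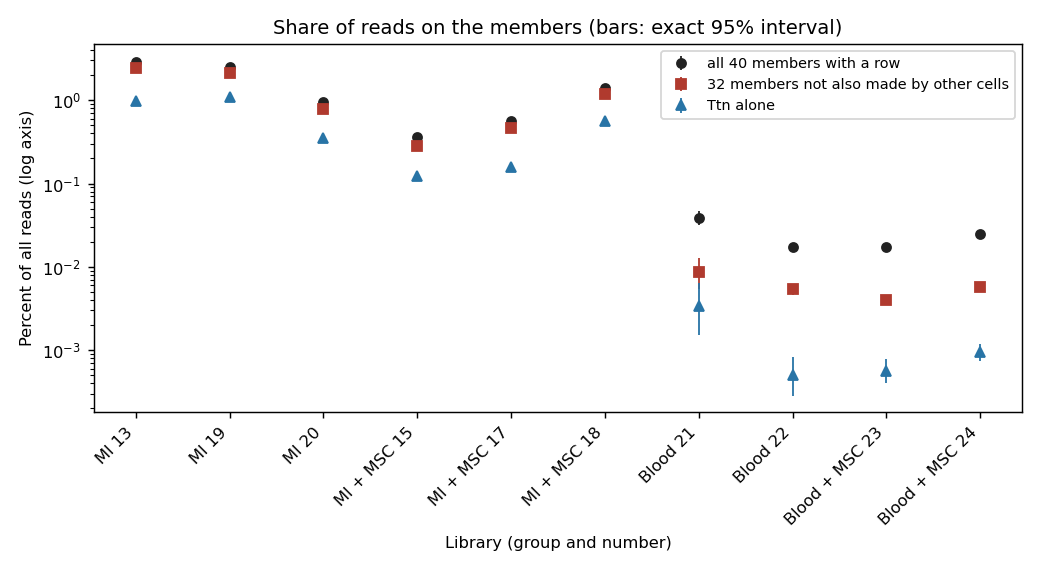
Percent of all reads (log axis) on the 40 members, on the 32 members not listed as also made by other cells and on Ttn alone, for each of the 10 libraries, with exact 95% intervals. The 6 cardiac libraries lie between 0.359% and 2.89% for the 40 members and the 4 blood libraries between 0.0171% and 0.0387%.

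The first comparison asked how Ly6G+ cells taken from the infarcted ventricle differ from those of blood. In the test over all genes (limma on log2(normalized count + 2), called at a Benjamini-Hochberg adjusted p under 0.05 with an absolute log2 fold change no smaller than 0.5), 37 of the 38 tested members were higher in MI than in Blood, where 21.2% of all tested genes were called higher. Their median log2 fold change was 5.75, against 0.15 over all tested genes. In mice given MSC, 37 of 38 were higher in MI + MSC than in Blood + MSC, where 8.23% of tested genes were, with a median of 4.35 against 0.09. Tpm1 was the exception in the first comparison (log2 fold change 1.59, SE 0.67, adjusted p = 0.0849) and Mybpc3 in the second (1.62, SE 0.55, adjusted p = 0.0711). Limma-voom with sample weights called 15 members higher in MI than in Blood, and 8.1% of tested genes. In the mice given MSC, 25 members were called higher without Blood + MSC 23 (1.97% of tested genes), 26 without Blood + MSC 24 (3.3%) and 28 without MI + MSC 18 (4.1%). For 37 of the 38 tested members, every cardiac library lay above every blood library, as for 19.1% of tested genes. Tpm1 overlapped.

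Myh6, the main myosin motor of the adult mouse ventricle, had 2858, 3901 and 1391 normalized counts in MI 13, 19 and 20 and 497, 402 and 2211 in MI + MSC 15, 17 and 18. In blood it had 0, 1, 9 and 4 reads in libraries 21, 22, 23 and 24, and its log2 fold change was 10.08 (SE 0.65, adjusted p = 5.43e-06) without and 7.81 (SE 0.65, adjusted p = 7.62e-05) with MSC. The cardiac levels spread widely, but none came near blood. Myh7, the beta chain that dominates before birth, had 118, 111 and 94.2 normalized counts in MI, as against 21.6, 39 and 38.6 in MI + MSC, with at most 6 reads in a blood library. It was higher by 5.57 (SE 0.44, adjusted p = 1.54e-05) and 3.55 (SE 0.44, adjusted p = 0.000744) on the log2 scale. Both chains are close paralogs on chromosome 14, where Myh7 lies 2254 bases before Myh6 on the same strand, so reads from shared stretches could have been assigned to either gene or dropped.

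Among the light chains and the other thick filament proteins, the adult ventricular light chains were higher per kilobase of transcript (Myl2 274, Myl3 230 normalized counts) than the atrial ones (Myl4 7.64, Myl7 5.25). The essential light chain gene Myl3 had 462, 332 and 119 normalized counts in MI, as against 53.4, 119 and 212 in MI + MSC, with 1 read in all of blood. Its level was at least 26.3-fold higher in MI than in Blood and at least 198-fold higher in MI + MSC than in Blood + MSC, counting 3 reads per blood library as the floor. The regulatory light chain gene Myl2 had 124 to 529 normalized counts in MI, as against 73.0 to 171 in MI + MSC, and up to 18.8 in blood (Blood 22, 29 reads). Both ventricular light chains were thus high in every cardiac library, while blood held more reads of Myl2 than of Myl3. The atrial light chains Myl4 and Myl7 had at most 13 and 2 reads in any cardiac library and 11 and 12 reads in all of blood. Myl7 was the 1 member whose reads per total reads were not lower in blood, at 120% of those in the cardiac libraries.

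Ttn, the spring of the sarcomere, held more reads than any other member, with 12279, 14875 and 4864 normalized counts across MI libraries, 1855, 2411 and 7524 across those of MI + MSC, and 9.46 to 63.6 in blood. Its log2 fold changes were 8.44 (SE 0.76) and 7.92 (SE 0.76), with adjusted p = 3.63e-05 and 0.000171. Myom1, which crosslinks myosin in the M-band, had 117 to 328 normalized counts in MI, 56.1 to 151 in MI + MSC and 3.41 to 35.3 in blood, the top value resting on 5 reads in Blood 21. Mybpc3, whose product binds and tunes myosin, had 277, 421 and 116 normalized counts in MI, as against 55.4, 94.1 and 193 in MI + MSC. Its blood values were 35.3, 42.9, 29.2 and 33.5, or 5, 66, 111 and 199 reads, the narrowest gap between heart and blood among the thick filament genes that were tested. The gene Spi1, which encodes the myeloid factor PU.1, ends 2388 bases before Mybpc3 on the same strand and had 13382 reads in blood and 3939 in the cardiac libraries. Whether reads that run past Spi1 contribute to Mybpc3 was not tested. Of the 40 members, 7 had a gene on the same strand ending within 5000 bases before them, and 2 of these genes had over 1000 reads in blood, Spi1 and Stard3. Tcap, which follows Stard3 at 2543 bases, had 6 reads in blood.

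The thin filament genes were all higher in the heart apart from Tpm1 in the comparison without MSC. Actc1, cardiac alpha-actin, had 2261, 1707 and 579 normalized counts across MI libraries, 258, 638 and 927 across those of MI + MSC and 2 reads in all of blood, which made it at least 940-fold higher in MI + MSC than in Blood + MSC. The troponin genes Tnnt2 (binds tropomyosin), Tnni3 (inhibits) and Tnnc1 (binds calcium) had 46.8 to 299 normalized counts in MI, as against 29.7 to 140 in MI + MSC, with at most 8 reads in any blood library. Their log2 fold changes between MI and Blood were 6.70 (SE 0.59, adjusted p = 3.1e-05), 5.59 (SE 0.56, adjusted p = 7.09e-05) and 4.97 (SE 0.72, adjusted p = 0.000675). All 3 troponin subunits of the ventricle were therefore detected in every cardiac library. Nebl, encoding nebulette of the thin filament anchor, had 20.3 to 160 normalized counts in the cardiac libraries and 0 to 5.22 in blood.

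Tpm1 stood apart from the other thin filament genes in that its blood values were not near 0. It had 891, 456 and 321 normalized counts across MI libraries and 187, 209 and 357 across those of MI + MSC. Its values were 431 and 64.3 in Blood 21 and 22 and 37.3 to 50.5 in Blood + MSC. Blood 21 stood within the cardiac range and the other 3 blood libraries below it. Blood 21 also held most of the platelet list, of which 7 of 8 genes had a row: their summed level was 27378 normalized counts there, 1147 in Blood 22, 602 to 709 in Blood + MSC, 462 to 642 in MI and 833 to 1757 in MI + MSC. The part of platelets in the Tpm1 value was not tested, and without Blood 21 all 38 tested members were called higher in MI than in Blood.

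**Figure D2:**
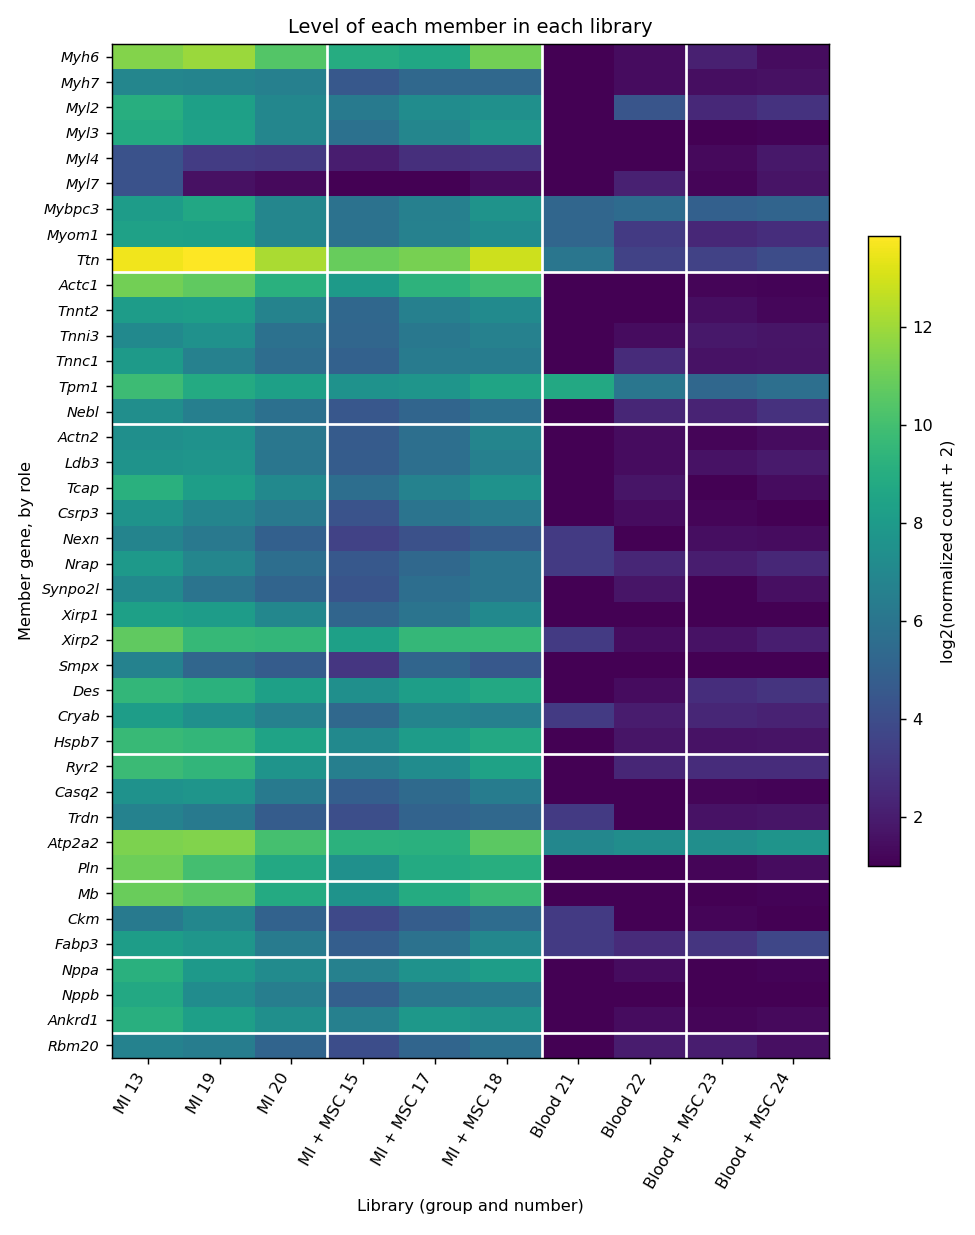
Level of the 40 members (rows, ordered by role) in the 10 libraries (columns), as log2(normalized count + 2) in colour. The 6 cardiac columns are brighter than the 4 blood columns for all rows but Tpm1 and Myl7, and Atp2a2, Tpm1 and Mybpc3 keep some colour in blood.

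Of the 13 genes of the Z-disc and the intermediate filaments, 13 were higher in MI than in Blood and 13 in MI + MSC than in Blood + MSC. Xirp1, an actin-binding protein of the intercalated disc, had 311, 271 and 120 normalized counts across MI libraries, 35.1, 59.7 and 134 across those of MI + MSC and 0 reads in all 4 blood libraries. This was at least 118-fold higher in MI + MSC than in Blood + MSC. Its relative Xirp2 reached 742 to 1698 normalized counts in MI, 311 to 793 in MI + MSC and 0.65 to 7.07 in blood, and differed by 7.32 (SE 0.57, adjusted p = 6e-05) on the log2 scale between MI + MSC and Blood + MSC. Smpx, a small muscle protein, also had 0 reads in blood and 6.08 to 101 normalized counts in the cardiac libraries. Thus both Xirp1 and Smpx were seen in each cardiac library and in no blood library.

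Des, the muscle intermediate filament desmin, had 731, 601 and 318 normalized counts in MI, as against 166, 296 and 426 in MI + MSC, and 0 to 5.55 in blood. The small heat shock proteins Hspb7 and Cryab, which guard filament proteins, had 345 to 807 and 99.3 to 286 normalized counts in MI, and 138 to 430 and 38.5 to 108 in MI + MSC. Hspb7 differed by 6.36 (SE 0.50, adjusted p = 6e-05) and Cryab by 3.95 (SE 0.56, adjusted p = 0.00149) between MI + MSC and Blood + MSC. The remaining 7 genes were Actn2 (alpha-actinin, the crosslinker of the Z-disc), Ldb3 (which binds it), Tcap (titin cap), Csrp3 (muscle LIM protein), Nexn (nexilin), Nrap, which ties actin to the cell ends, and Synpo2l, an actin-binding partner of alpha-actinin. Their log2 fold changes between MI and Blood ran from 3.89 for Nexn (SE 0.75, adjusted p = 0.0033) to 6.80 for Tcap (SE 0.65, adjusted p = 4.77e-05). Nrap, at 21 to 244 normalized counts in the cardiac libraries, had the most blood reads of these 7, with 20 in Blood + MSC 24.

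All 5 calcium handling genes were higher in the heart in both comparisons. Pln, phospholamban, which restrains the SERCA2 pump, had 2051, 1034 and 436 normalized counts across MI libraries, 172, 468 and 529 across those of MI + MSC and 5 reads in blood. Ryr2, the calcium release channel, had 857, 711 and 200 in MI, as against 92.6, 152 and 334 in MI + MSC, with at most 25 reads in a blood library. Casq2, the calcium buffer of the reticulum, and Trdn, triadin, which links it to the channel, had 24.7 to 208 normalized counts in MI, as against 14.9 to 83.4 in MI + MSC. Their log2 fold changes between MI and Blood were 6.19 (SE 0.57, adjusted p = 3.83e-05) and 3.82 (SE 0.75, adjusted p = 0.00361). Atp2a2 had 2547, 2740 and 1069 normalized counts in MI, as against 606, 581 and 1572 in MI + MSC. Blood held 120, 155, 163 and 202 normalized counts in libraries 21 to 24, all below the heart. Its 2076 blood reads were the most of any member, and the log2 fold change was 3.82 (SE 0.51, adjusted p = 0.000425) without and 2.17 (SE 0.51, adjusted p = 0.0179) with MSC.

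Mb, which encodes the oxygen-binding myoglobin, had 1925, 1544 and 467 normalized counts across MI libraries, 190, 487 and 841 across those of MI + MSC and 1 read in all of blood, at least a 782-fold difference between MI + MSC and Blood + MSC. Ckm, muscle creatine kinase, had 30.9 to 123 normalized counts in MI, as against 12.2 to 44.7 in MI + MSC, and 2 reads in blood. Fabp3, a fatty acid carrier also found outside muscle, had 78.2 to 286 normalized counts in MI, 27.0 to 123 in MI + MSC and 3.90 to 11.4 in blood. All 3 were called higher in both comparisons, Fabp3 with the smallest change in mice given MSC (2.51, SE 0.65, adjusted p = 0.0259).

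The natriuretic peptide genes Nppa and Nppb, hormones released by strained heart muscle, and the stress gene Ankrd1 were present in every cardiac library. Nppa had 571, 238 and 146 normalized counts in MI, as against 98.7, 188 and 282 in MI + MSC, with 2 reads in blood. Nppb had 429, 153 and 89.6 in MI, as against 27.7, 66.6 and 78.0 in MI + MSC, with 0 reads in blood, and was at least 88.8-fold higher in MI + MSC than in Blood + MSC. Ankrd1, a titin-associated repressor induced by load, had 166 to 555 in MI and 96.7 to 227 in MI + MSC, with 5 reads in blood. Rbm20, which directs the splicing of titin, had 33.5 to 101 normalized counts in MI and 14.2 to 53.6 in MI + MSC. Against blood it was higher by 4.6 (SE 0.66, adjusted p = 0.000653) without and 3.23 (SE 0.66, adjusted p = 0.00901) with MSC on the log2 scale.

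In blood, the members held 3848 reads in all, against 104577 in the cardiac libraries. Of the blood reads, 79.5% lay on Atp2a2 (2076), Tpm1 (602) and Mybpc3 (381). A count of at most 3 reads in each of the 4 blood libraries was found for 12 of 40 members, and Xirp1, Smpx and Nppb had 0 throughout. A count of 0 allows up to 3 reads per library, or 0.505 normalized counts in the deepest (Blood + MSC 24) and 21.2 in Blood 21. In reads per total reads of the tissue, blood reached between 0.0112% of the cardiac level (Mb) and 17.3% (Mybpc3) among the other members with a higher cardiac level.

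**Figure D3:**
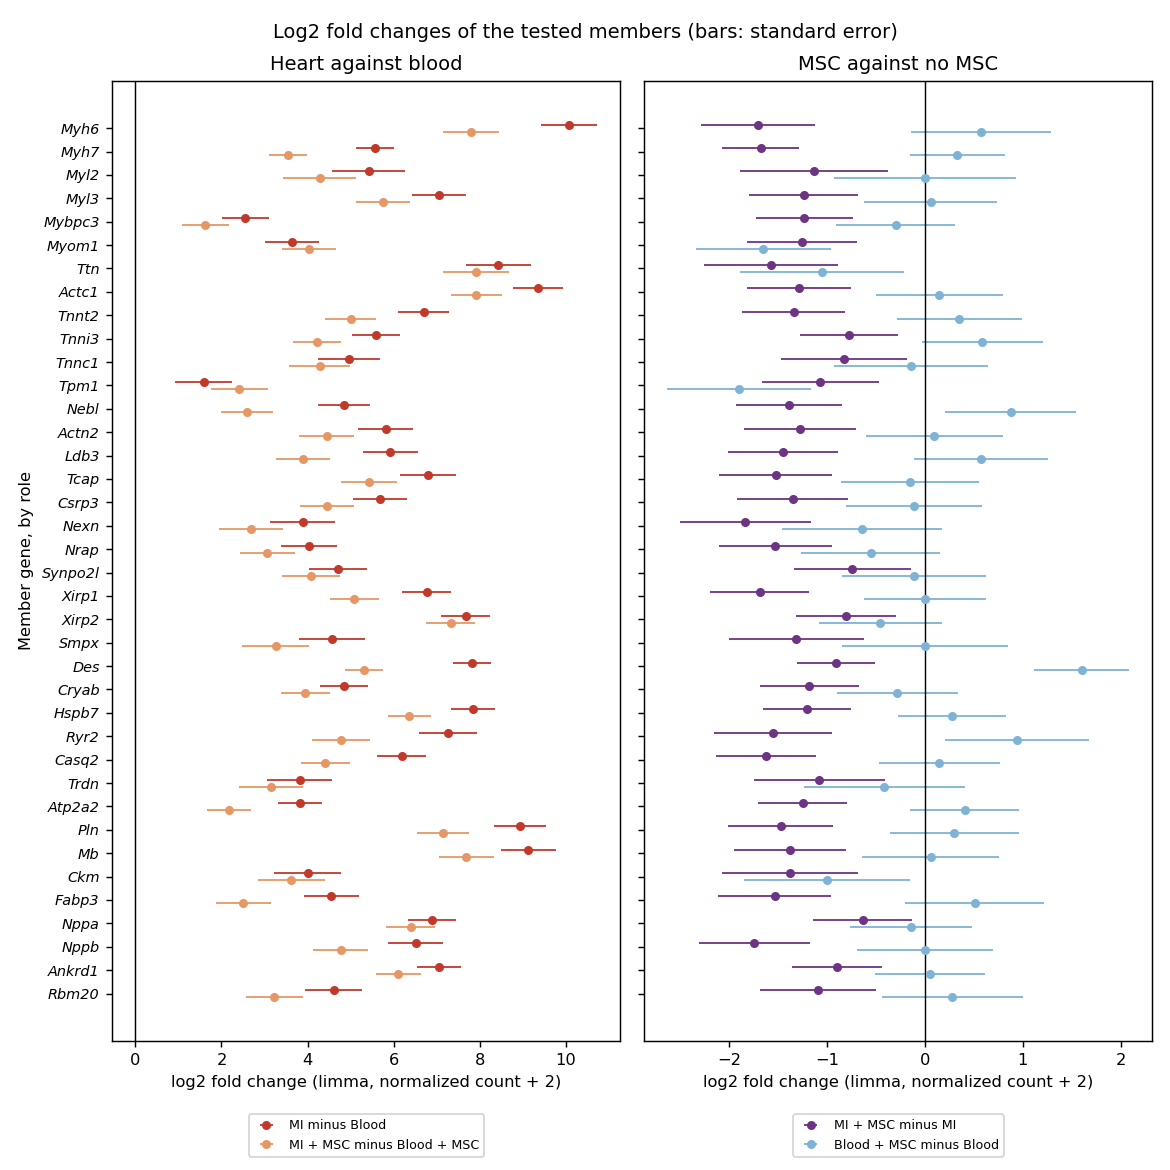
Log2 fold changes of the 38 tested members with standard errors, on the left MI minus Blood and MI + MSC minus Blood + MSC, on the right MI + MSC minus MI and Blood + MSC minus Blood. All points on the left are above 0, and all MI + MSC minus MI points on the right are below 0 without any being called by limma, from -1.84 (Nexn) to -0.64 (Nppa).

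The next comparison asked whether the members differed between cardiac libraries with and without MSC. No member was called by limma in either direction, as for 0.0% of tested genes called higher and 0.0% called lower. At an unadjusted p under 0.05 there were 26 of 38 members, all with lower values in MI + MSC, against 925 of all 11549 tested genes. The log2 fold change was under 0 for 38 of 38 members, as for 51.1% of tested genes, with a median of -1.30 against -0.01 over all tested genes, and adjusted p ran from 0.375 (Myh7) to 0.712 (Synpo2l). The median was -0.82 without MI + MSC 15, -0.99 without MI 13 and -1.76 without MI 20. edgeR called 0 members. DESeq2 called Myh7 lower (0.502% of tested genes were called lower by it), as did limma-voom with sample weights (1.92%). Groups of 3 libraries overlapped for most members: for 3 of the 38 tested members, Myh7, Nexn and Nppb, every MI + MSC library was below every MI library, beside 9.6% of all tested genes.

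Of the members with separate groups, Myh7 had 94.2 to 118 normalized counts in MI, as against 21.6 to 39 in MI + MSC (log2 fold change -1.68, SE 0.40, adjusted p = 0.375). Nexn had 109, 72.1 and 28.3 in MI, as against 9.46, 16.1 and 24.4 in MI + MSC (-1.84, SE 0.67, adjusted p = 0.582). The lowest MI value of Nexn exceeded the highest MI + MSC value by a small margin. For Ttn, Myh6 and Actc1, MI 20 lay below MI + MSC 18. In the mean log2(normalized count + 2) of the 38 tested members, the order from high to low was MI 13 (8.68), MI 19 (8.25), MI + MSC 18 (7.45), MI 20 (7.06), MI + MSC 17 (6.82) and MI + MSC 15 (5.85).

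Other gene lists are given beside the members for the same groups. Of other cardiomyocyte genes, 14 of 14 tested sarcomere genes, 11 of 12 calcium and channel genes, 8 of 8 metabolic genes and 6 of 6 transcription factor genes had a log2 fold change under 0, with medians of -1.39, -1.08, -1.18 and -1.05. The intercalated disc list was under 0 for 7 of 7 genes (median -1.18). The endothelial list was under 0 for 10 of 10 tested genes (median -1.60), with a summed level of 2210 to 2401 normalized counts in MI, 518 to 988 in MI + MSC, 129 to 1653 in Blood (1653 in Blood 21) and 81.6 to 88.3 in Blood + MSC. The pericyte and smooth muscle list was under 0 for 8 of 8 (median -0.99), the fibroblast list for 5 of 9 (median -0.07), the neutrophil list for 6 of 12 (median 0.13) and the macrophage list for 2 of 11 (median 0.72). None of these genes was called by limma, and the part of the number of each cell type in the members' values was not tested.

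**Figure D4:**
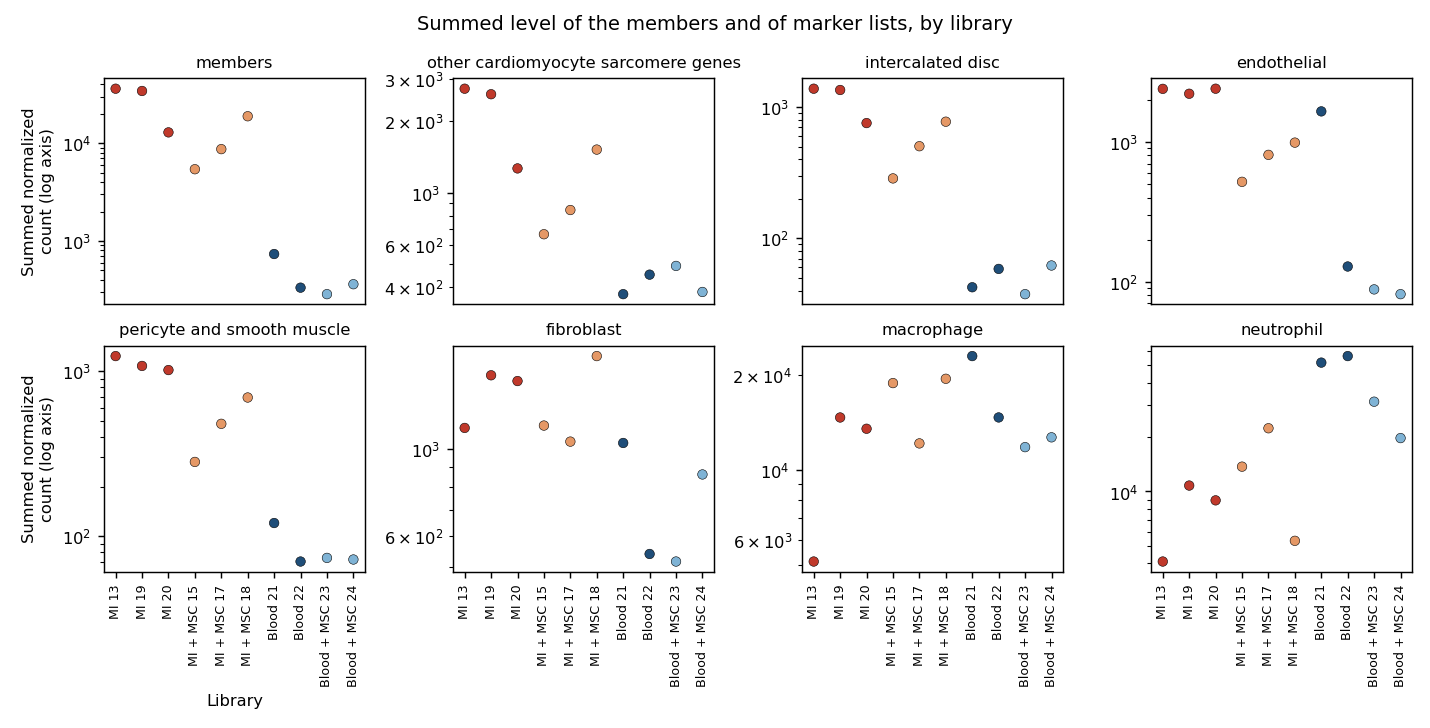
Summed normalized count (log axis) of the members and of 7 marker lists in each of the 10 libraries, 1 point per library. The members run from 5416 to 36088 in the cardiac and from 286 to 735 in the blood libraries, and the endothelial list in MI (2210 to 2401) lies above that in MI + MSC (518 to 988).

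The label of the list was checked against further markers. Of all tested genes, limma called 21.2% higher in MI than in Blood and 8.23% in MI + MSC than in Blood + MSC. Of other cardiomyocyte sarcomere genes, 13 of 14 and 10 of 14 tested were called higher in these comparisons. For calcium and channel genes this was 11 and 6 of 12, for metabolic genes 5 and 3 of 8, for intercalated disc genes 7 and 4 of 7, and for cardiomyocyte transcription factors 3 and 1 of 6. Kcnj2, of the calcium and channel list, was called lower in MI than in Blood by limma (log2 fold change -1.50, SE 0.52, adjusted p = 0.0426). The untested Nkx2-5, a defining transcription factor of heart muscle, had 1 to 19 reads in each cardiac library and 1 read in all of blood. Of the skeletal muscle list, 14 of 15 genes had a row and 3 of these were tested, of which Acta1, which the heart also uses, was the 1 gene called higher in each comparison. The fast skeletal myosin genes Myh1, Myh2 and Myh4 had 3 to 11 reads in each cardiac library, a range that overlaps that of Nkx2-5. Nkx2-5 exceeded all of them in MI 19, MI 20, MI + MSC 15 and MI + MSC 18, but not in MI 13. In MI + MSC 17, Nkx2-5 had 1 read and Myh1, Myh2 and Myh4 had 5, 8 and 5. Lists of other heart cells were also higher than blood, the endothelial list for 7 and 7 of 10 genes, the pericyte and smooth muscle list for 6 and 5 of 8 and the fibroblast list for 5 and 4 of 9. The macrophage list was higher for 1 and 2 of 11. The B cell list was higher for 0 of 5 genes in either comparison, the erythroid list for 0 of 6, and the T cell list had no tested gene.

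In blood, no member differed by the test between mice with and without MSC. limma called 0.0% of tested genes higher and 0.0% lower, and no member, in Blood + MSC against Blood, and 3 of 38 members and 848 of 11549 genes had an unadjusted p under 0.05. edgeR and limma-voom called no member, and DESeq2 called Tpm1 lower, as it did 1.15% of all genes it tested. The interaction of MSC and tissue, which tests the difference between the MSC effects in heart and blood, called no member and again 0.0% of genes higher and 0.0% lower, with 838 genes at an unadjusted p under 0.05. edgeR and limma-voom called no member either, nor did DESeq2, which gave an adjusted p for 11 members. Without Blood 22, Blood rested on Blood 21 alone, which was assumed to vary like the libraries of the other groups. Of the 38 members, 2 were then called lower in Blood + MSC (Tpm1 and Myom1, beside 3.4% of all tested genes) and 2 in the interaction (Des and Myh7, beside 7.33%).

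Since the amount of member RNA varied widely between cardiac libraries, its make-up was described as shares of the member reads. Ttn took 27.7% to 43.5%, Myh6 4.62% to 11.7%, Atp2a2 6.68% to 11.2%, Xirp2 2.32% to 8.63%, Actc1 4.48% to 7.34%, Mb 3.51% to 5.6% and Pln 2.80% to 5.68%. The log2 ratio of a member to the summed members had a range over the 6 cardiac libraries with a median of 0.94 over the 39 members with reads in all of them. For 36 of these 39 members, MI and MI + MSC overlapped. Nexn, Xirp1 and Casq2 took a lower share in every MI + MSC library than in any MI library (by 0.58, 0.34 and 0.28 on the log2 scale). Each had p = 0.1 in a two-sided exact permutation test, the smallest p that 3 libraries against 3 can give. With Benjamini-Hochberg adjustment over these 39 members, the p of this test was 0.881 for each, so none was called. No member took a higher share in every MI + MSC library.

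**Figure D5:**
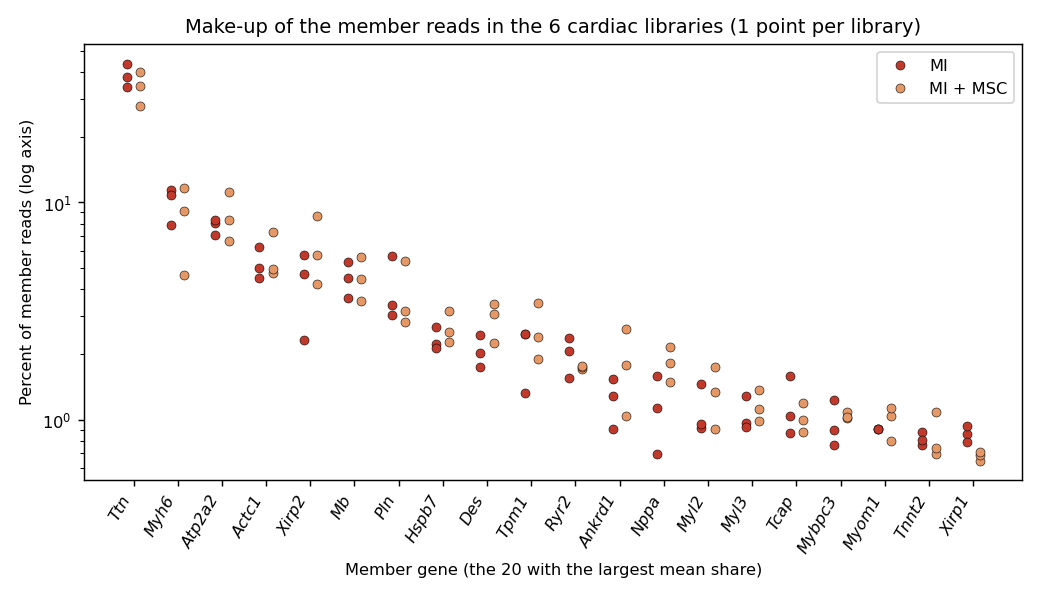
Share of the member reads (percent, log axis) taken by each of the 20 members with the largest mean share, 1 point for each of the 3 MI and 3 MI + MSC libraries. Ttn takes 27.7% to 43.5% in all 6 libraries, and MI and MI + MSC points overlap for most genes.

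Shares within pairs of related genes did not separate the groups. Myh7 took 3.95%, 2.76% and 6.34% of the Myh6 and Myh7 reads in MI and 4.17%, 8.85% and 1.72% in MI + MSC, with an exact 95% Clopper-Pearson interval of 5.24% to 13.8% for MI + MSC 17, where 192 reads fell on the pair. The means were 4.35% ± 1.83 (SD, n = 3) and 4.91% ± 3.63 (SD, n = 3), a difference of 0.562 points (two-sided exact permutation test, p = 0.8, adjusted p = 0.9 over 3 shares). Myl4 took 3.69% ± 1.53 (SD, n = 3) of the Myl3 and Myl4 reads in MI and 3.29% ± 0.682 (SD, n = 3) in MI + MSC (exact p = 0.9), and Myl7 1.27% ± 1.57 (SD, n = 3) and 0.132% ± 0.228 (SD, n = 3) of the Myl2 and Myl7 reads (exact p = 0.2). With 3 libraries against 3, the smallest p is 0.1, so this design could not pass 0.05.

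Levels between genes were compared per kilobase of the canonical transcript, as the mean normalized count over the 6 cardiac libraries divided by its length. On this scale Mb was highest (707 ± 531 per kilobase, SD, n = 6), followed by Atp2a2 (342 ± 213), Myh6 (300.5 ± 221), Actc1 (291 ± 210), Myl2 (274 ± 204) and Nppa (267 ± 177). Mb exceeded Atp2a2 by less than the SD of Mb but by more than that of Atp2a2. The later neighbours in this order differed by less than either SD. Because the members rose and fell together over the same libraries, these SDs do not measure the spread of a difference between genes. Ttn, first in reads, was at 67.9 ± 49.5 per kilobase, and the lowest were Myl4 (7.64 ± 5.40), Myl7 (5.25 ± 11.1) and Trdn (4.31 ± 3.02). The planned scale was per kilobase of all exons, and that of the canonical transcript was added later. Per kilobase of all exons, Mb stayed first and Nppa came second, while Atp2a2 fell to rank 8 and Myl2 to rank 15. The order below Mb thus depended on the length used.

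Over the 6 cardiac libraries, the log2 level of each tested member followed the mean of the other 37 members, with a Pearson correlation between 0.84 (Myh7) and 0.997 (Des). These 6 points share their library, depth and scaling with all genes of the library, so the values are given as a description. Outside the members and the cardiomyocyte lists, 10 coding genes were most like the members' mean by this measure. They were Sptb, Myo18b, Ldhb, Ndrg2, Rragd, Rcan2, Hjv, Dmpk, Alpk2 and Fhip1a, with correlations of 0.994 to 0.998. Not all of them were low in blood. Dmpk ran from 65.0 (Blood 22) to 120 (Blood 21) there, against 16.9 (MI + MSC 15) to 118 (MI 13) in the heart. Sptb and Rragd overlapped between heart and blood as well. For Myo18b, Ldhb, Ndrg2, Rcan2, Hjv, Alpk2 and Fhip1a, every cardiac library lay above every blood library. Rcan2 had 244, 173 and 74.1 normalized counts across MI libraries, 31.8, 55.1 and 104 across those of MI + MSC and at most 2.69 in blood, and Ldhb 151, 126 and 46.8 in MI, 20.3, 39 and 69.1 in MI + MSC and 6.83 to 8.75 in blood.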

How the data were processed

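RNA-seq libraries of Ly6G+ cells were grouped from the sample labels, and 0 columns were left unmapped. Per the labels and the methods of the study, the authors used Trimmomatic, Picard, STAR on GRCm39, featureCounts and DESeq2, left out mitochondrial reads and counted by strand. The deposited values are signal values, read counts that the authors divided by the size factor of each library. The table named raw holds 0% whole numbers and equals the normalized table in 281850 of 281850 values. All values (100%) were multiples of the library's smallest step, that of a single read (tolerance 0.05), which gave the recovered reads. GENCODE (vM39) held 27906 of the 28185 identifiers, and one member with no row was left out.

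Genes whose normalized counts averaged 10 or more were tested with limma (3.58.1, trend) on log2(normalized count + 2), with 1 mean per group over all 10 libraries. A fold change on this scale understates the change of low genes. A gene was called where the adjusted p was under 0.05 and the log2 values of the groups lay 0.5 or more apart. A fold against a group with at most 3 reads in each library is the mean of the other group over the mean of 3 reads per library. It is a lower bound for the ratio of the group means and leaves out the spread between cardiac libraries. edgeR (4.0.16), DESeq2 (1.42.0) and limma-voom with sample weights ran on recovered reads as alternatives, besides other pseudocounts, filters, scalings and libraries left out. For MI + MSC against MI, 200 of 11549 genes were changed in simulated reads by a log2 fold change of 2, among genes averaging over 50 normalized counts, and limma found 161 with 2 wrong calls, edgeR 180 with 6, DESeq2 184 with 15 and voom 176 with 5.

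All members were named. Lists of other cell types were written by hand, and the genes most like the members were the 10 with the highest Pearson correlation. The members and lists were chosen with earlier results of these data known. Isoform shares were compared by exact permutation. Scripts ran on Python 3.11.15 (scipy 1.17.1, matplotlib 3.10.9, pandas 2.3.3, numpy 2.4.6) and R 4.3.3.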

Additional observations from a re-analysis of the deposited data

How the results depend on the processing

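All 802 log2 fold changes of members for MI + MSC against MI under 21 alternatives were under 0. The members moved together over the same cardiac libraries, so these 802 values are refits and not separate results. All alternatives kept the direction of the 38 tested members in both heart and blood comparisons. In MI + MSC against Blood + MSC, 1 further member (Myl7) lay lower in the heart with no filter and by DESeq2. Limma-voom with sample weights called 15 members higher in MI than in Blood in place of 37, and the cause was not tested. With 1 library left out, 37 to 38 members were called in MI against Blood and 25 to 38 in MI + MSC against Blood + MSC. Myh7 was the 1 member called lower in MI + MSC than in MI, by DESeq2 and by limma-voom with sample weights, and 0 were called with any library left out. In blood, 1 member was called lower by DESeq2 and 0 to 2 with a library left out, and in the interaction 0 to 2. Without the members listed as also made by other cells, fewer genes are summed, and the share of reads was 0.00695% in Blood and 0.00488% in Blood + MSC. With 1 library left out, the Myh7 share differed between MI + MSC and MI by -1.41 to 2.16 points, -0.236 without MI 19 and -1.41 without MI + MSC 17, and the Myl4 share by -1.12 to 0.400 points, 0.400 without MI 20. The Myl7 share stayed lower in MI + MSC (-1.61 to -0.228 points). Csrp3 turned from lower to higher against the summed members (0.0300 on the log2 scale) when those also made by other cells were left out. Leaving out MI 13 and Blood 21, the 2 shallowest libraries, was chosen after seeing the data and left 38 members called in each heart and blood comparison. No paired analysis was possible because no group shares replicate numbers with another. At 1 read per 8.40 normalized counts in MI 13, low members such as Myl7 rest on 2 reads there.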
